A study of Mus musculus with 12 samples.

Results

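The 10 genes described here, Pttg1, Rab6b, Ddost, Tirap, Hddc3, Aldh4a1, Rbp7, Ctxn3, Glo1 and Cacng7, were picked from earlier results on these arrays because their levels in plantaris differed between REDD1 knockout and wild-type mice whether or not the mice had exercised. They are 10 of the 22180 genes that the array platform pairs with a single symbol, and all 10 were bright enough to be among the 13747 genes tested. Rab6b was bright enough only through its knockout arrays. The arrays hold plantaris, a fast calf muscle, from male mice aged 12 weeks that had been without food for 3 hours. Wild-type mice and mice lacking REDD1 were assigned at random to rest or to exercise, which gave 4 groups of 3 arrays, each array from the plantaris of a mouse under isoflurane; the exercised mice had finished a single aerobic session 1 hour earlier. The strain, the way the knockout was made and any batches are not given in the sources used here. P-values set a difference against the spread between these arrays within the 4 groups.

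REDD1, encoded by Ddit4, is induced by stress and exercise and restrains mTORC1, the kinase complex that promotes protein synthesis. The 10 genes are not known as members of a shared pathway. They encode a brake on chromosome separation (Pttg1), 3 proteins of membrane traffic, glycosylation and innate signalling (Rab6b, Ddost, Tirap), 4 proteins of metabolism and retinoid transport (Hddc3, Aldh4a1, Glo1, Rbp7), and 2 membrane proteins best known from neurons or kidney (Cacng7, Ctxn3).

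The promoter sequences of 5 of them are shown first, because the results turn on these genes: Pttg1 had the largest deficit in the knockout and Rab6b the largest excess, Ddost and Aldh4a1 lie close together on chromosome 4 and differ in opposite directions, and Rbp7 was also the 1 gene of the 10 called for exercise. Each run is the 250 bases before the annotated start, 5′ to 3′ on the gene's strand, from RefSeq (GRCm38.p6). The windows are chr11:43425982-43426231 on the minus strand for Pttg1, chr9:103111824-103112073 on the plus strand for Rab6b, chr4:138304488-138304737 on the plus strand for Ddost, chr4:139622644-139622893 on the plus strand for Aldh4a1 and chr4:149454969-149455218 on the minus strand for Rbp7. Capitals mark any match, on either strand, to a CCAAT box (CCAAT) or a GC box (GGGCGG), the letters of common promoter elements. The TATA box (TATAAA) and the E-box (CACGTG) were searched in the same way. The motifs were chosen after the data were seen.
Pttg1: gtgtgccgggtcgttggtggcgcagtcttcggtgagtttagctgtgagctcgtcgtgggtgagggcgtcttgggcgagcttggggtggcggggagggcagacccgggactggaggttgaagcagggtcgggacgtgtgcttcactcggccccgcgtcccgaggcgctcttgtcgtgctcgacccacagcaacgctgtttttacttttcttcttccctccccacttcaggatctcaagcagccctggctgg
Rab6b: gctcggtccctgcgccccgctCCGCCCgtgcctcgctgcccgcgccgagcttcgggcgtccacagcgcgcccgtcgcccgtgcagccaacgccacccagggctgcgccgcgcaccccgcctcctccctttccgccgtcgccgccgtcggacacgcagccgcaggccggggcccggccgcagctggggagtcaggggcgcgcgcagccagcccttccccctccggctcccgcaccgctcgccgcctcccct
Ddost: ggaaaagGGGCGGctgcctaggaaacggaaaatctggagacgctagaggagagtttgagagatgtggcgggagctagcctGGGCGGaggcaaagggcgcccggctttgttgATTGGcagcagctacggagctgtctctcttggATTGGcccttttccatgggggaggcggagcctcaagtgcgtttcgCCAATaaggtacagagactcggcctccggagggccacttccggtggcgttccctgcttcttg
Aldh4a1: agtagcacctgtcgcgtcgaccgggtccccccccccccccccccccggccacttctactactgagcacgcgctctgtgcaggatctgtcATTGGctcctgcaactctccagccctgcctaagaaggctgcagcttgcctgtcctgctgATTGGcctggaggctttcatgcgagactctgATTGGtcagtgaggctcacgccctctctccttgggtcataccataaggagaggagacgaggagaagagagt
Rbp7: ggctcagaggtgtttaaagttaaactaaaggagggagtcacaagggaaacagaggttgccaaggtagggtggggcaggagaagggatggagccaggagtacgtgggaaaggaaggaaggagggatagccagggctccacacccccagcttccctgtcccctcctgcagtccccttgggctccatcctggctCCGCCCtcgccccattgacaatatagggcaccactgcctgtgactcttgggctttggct

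These promoters had little in common by these letters. The Rab6b window was 80.8% G and C with 40 CG pairs, against a median of 52.4% and 6 over the 32851 RefSeq windows of the same length, and the Rbp7 window was 58.4% G and C with 3 CG pairs. Ddost and Aldh4a1 each had 3 CCAAT matches, whereas Pttg1 had none of the 4 motifs. Windows of 9 of the 10 genes were searched, Ctxn3 being left out, and CCAAT was in a window of 4 of the 9 and GGGCGG in 6. These are counts of genes, whose windows numbered 10 because Tirap had more than 1, not all with GGGCGG. Counted per window over all RefSeq windows, the shares were 33.8% for CCAAT, 32.7% for GGGCGG, 12.4% for TATAAA and 6.02% for CACGTG. Neither TATAAA nor CACGTG was found in a window of the 9 genes. A match describes these letters only.

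As a check of the genotype labels, Ddit4 was lower in knockout than in wild-type arrays of the same condition. Its log2 levels ran from 5.83 to 6.13 at rest and 8.40 to 9.05 after exercise in wild type, and 5.08 to 5.44 and 5.72 to 6.77 in the knockout. By limma its genotype difference was -2.37 after exercise (SE 0.22, adjusted p = 0.00011). At rest the difference was -0.71 (SE 0.22, limma adjusted p = 0.411) and was not called. The sources do not give which part of the gene was deleted or where the probes lie, so the remaining signal says nothing of whether the transcript is whole. Pairs of arrays correlated across transcript clusters with Pearson's r between 0.967 and 0.985. Fast-fibre markers were all measured (8 of 8), and their mean differed from the 12-array mean by at most 0.06 on any array. Slow-fibre markers, 6 of 6 measured, varied more: their mean deviation ran from -0.47 to 0.03 at rest and -0.14 to -0.05 after exercise in wild type, and -0.69 to 0.68 and -0.15 to 0.73 in the knockout. Their median difference was 0.37 for genotype (4 of 6 positive) and 0.26 for exercise (6 of 6 positive), with 0 called by limma for either, and their part in the values of the 10 genes was not tested. Fibroblast and matrix markers were all measured (7 of 7). Their summed log2 levels were 67.1 to 68.1 at rest and 67.7 to 69.0 after exercise in wild type. In the knockout they were 67.1 to 73.2 and 66.4 to 66.7, so the genotypes did not overlap after exercise. The median genotype difference of this list was 0.04 (5 of 7 positive) with 0 called, and its part was not tested either.

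Of the 10 genes, 6 were lower and 4 higher in the knockout. All values below are log2 expression, a difference is knockout minus wild type averaged over both conditions with limma's standard error (SE, 6 arrays per genotype), and differences of the 10 genes are a description without a test because they chose the genes. In each condition taken alone, knockout and wild-type arrays did not overlap for any of the 10 genes, on the same side in both; this holds for 1.53% of the 13747 genes tested. All 6 knockout arrays lay apart from all 6 wild-type arrays for 9 of the 10, the exception being Rbp7, against 0.786% of genes tested. The 10 are among the 75 genes (0.546%) that limma called for genotype at an adjusted p under 0.05, and since they were chosen from this contrast nothing is read from these counts. The 75 became 149 without wild-type exercised replicate 1 and as few as 38 without wild-type sedentary replicate 2. In bulk muscle, fewer cells of a type and less RNA per cell cannot be told apart.

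**Figure D1:**
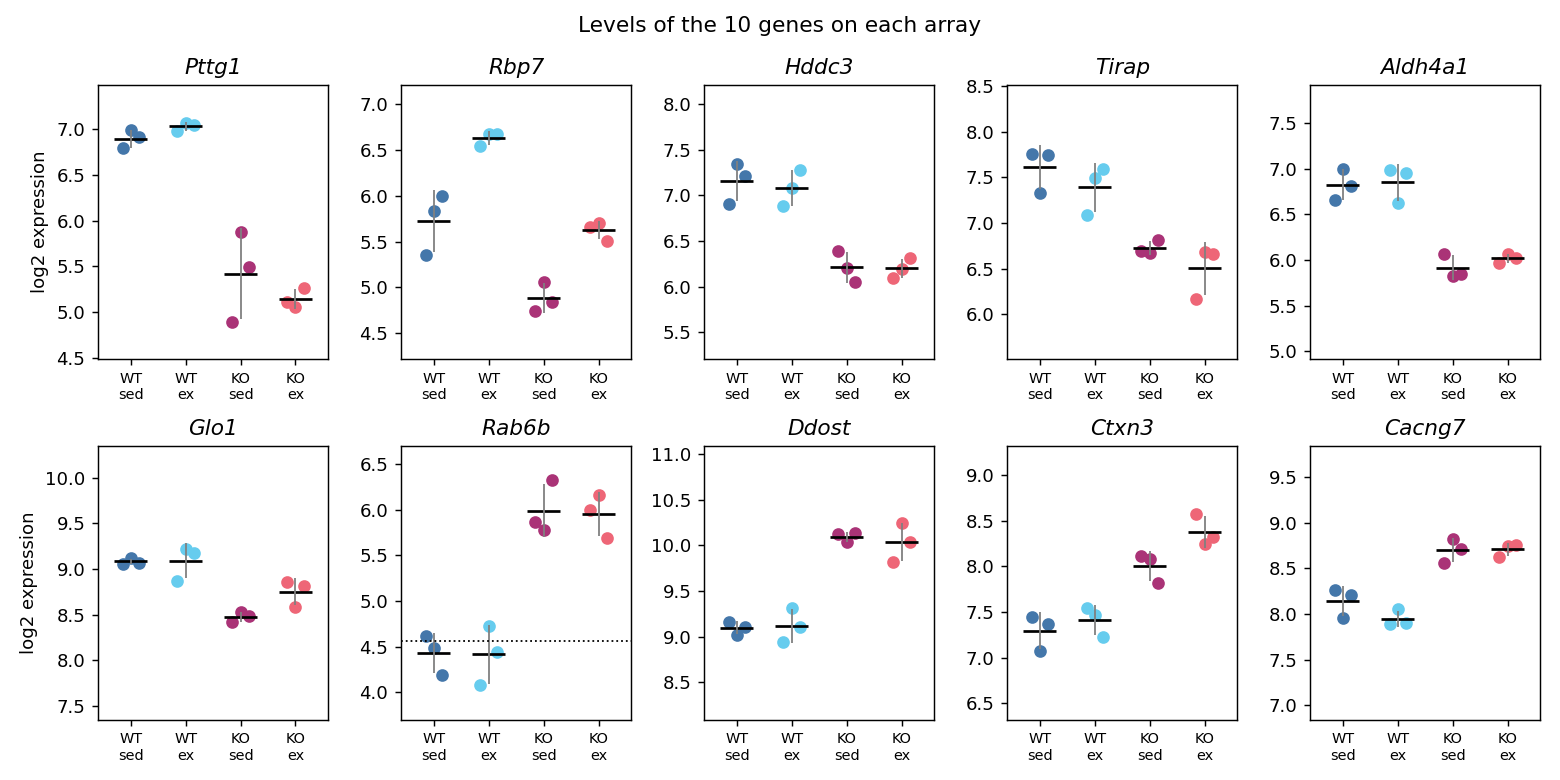
Log2 expression of each gene on each of the 12 arrays, in wild-type (WT) and knockout (KO), sedentary (sed) and exercised (ex) muscle; horizontal bars are means, vertical lines 1 SD (n = 3), every panel spans the same log2 range, and the dotted line in the Rab6b panel is the median of the whole table, 4.56. The upper row and Glo1 are lower in the knockout, the other 4 are higher, and only for Rbp7 do all exercised arrays lie above all sedentary arrays in both genotypes.

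Pttg1 encodes securin, which holds the protease separase inactive until sister chromatids may part. Wild-type arrays read 6.79, 6.99 and 6.91 at rest and 6.98, 7.07 and 7.05 after exercise, and knockout arrays 4.89, 5.88 and 5.49 at rest and 5.11, 5.05 and 5.26 after exercise. The wild-type arrays were tight and the knockout sedentary arrays the most scattered, with an SD of 0.50, yet the nearest knockout and wild-type arrays stood 0.92 apart. Pttg1 was 3.22-fold lower in the knockout (difference -1.69, SE 0.13), by -1.48 in sedentary and -1.89 in exercised muscle (SE 0.18 each).

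None of securin's tested partners passed. Of 19 listed genes of separase, cohesin and the anaphase-promoting complex, 16 were tested and 0 were called by limma for genotype (2 at an unadjusted p under 0.05), with a median of -0.04. Separase itself, Espl1, was at -0.05 (SE 0.09), the separation activator Cdc20 at -0.02 (SE 0.09), and the furthest, the cohesin gene Rad21, at -0.20 (SE 0.08, adjusted p = 0.41). Of 8 markers of proliferating cells only Plk1 was bright enough to test. Its list level ranged from 4.7 to 4.9 in both sedentary groups and in wild-type exercised arrays and from 4.6 to 4.8 in knockout exercised arrays, so the groups overlapped.

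Tirap, Hddc3, Aldh4a1 and Rbp7 shared a deficit of similar size, between 1.83-fold and 1.9-fold. Tirap encodes the adaptor that links certain Toll-like receptors to MyD88. At rest the wild-type arrays stood at 7.76, 7.33 and 7.74 and the knockout arrays at 6.69, 6.67 and 6.81, and after exercise at 7.09, 7.49 and 7.59 and 6.17, 6.68 and 6.66 respectively. The difference was -0.89 (SE 0.11) and came to -0.89 in each condition, the closest match between conditions among the 10. Of 17 listed Toll-like receptor and adaptor genes 12 were tested, and 0 were called by limma (2 at an unadjusted p under 0.05). They spread to both sides, from Cd14, a lipopolysaccharide co-receptor, at -0.28 (SE 0.11) to Tlr4, the lipopolysaccharide receptor, at 0.27 (SE 0.11), with Myd88 at 0.21 (SE 0.12). Macrophage and leukocyte markers, 8 of 8 measured, had summed log2 levels of 49.3 to 50.3 at rest and 49.9 to 51.6 after exercise in wild type, and 48.4 to 53.6 and 49.4 to 50 in the knockout. Those ranges overlap between genotypes, and 0 of the 8 were called for genotype.

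Hddc3, also known as MESH1, is a phosphohydrolase that can remove a phosphate from NADPH. Its 3 resting wild-type arrays gave 6.91, 7.34 and 7.21 and the exercised ones 6.88, 7.08 and 7.28, while the knockout gave 6.39, 6.20 and 6.05 at rest and 6.10, 6.19 and 6.31 after exercise. The highest knockout array lay 0.49 below the lowest wild-type array, and the difference was -0.91 (SE 0.10). Among 8 listed HD-domain and NADP-turnover genes, all tested, 0 were called for genotype (1 at an unadjusted p under 0.05), and the NAD kinase gene Nadk was at -0.10 (SE 0.07).

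Aldh4a1 encodes the mitochondrial dehydrogenase that completes the breakdown of proline to glutamate. Wild-type arrays read 6.66, 7.0 and 6.81 at rest and 6.99, 6.62 and 6.95 after exercise, and knockout arrays 6.07, 5.82 and 5.85 at rest and 5.97, 6.07 and 6.02 after exercise. The groups were 0.55 apart at their nearest, with a difference of -0.87 (SE 0.09). The enzyme just before it, Prodh, was at 0.01 (SE 0.09), and Oat, which makes the same intermediate from ornithine, was at 0.01 (SE 0.08). Of 15 listed genes of proline metabolism and related dehydrogenases 12 were tested and 0 called (1 at an unadjusted p under 0.05, Aldh7a1, which acts in lysine breakdown, at 0.36 with SE 0.10).

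Glo1, glyoxalase 1, starts the glutathione-dependent removal of methylglyoxal, a reactive by-product of glycolysis. At rest the wild-type arrays stood at 9.06, 9.12 and 9.07 and the knockout arrays at 8.42, 8.53 and 8.49, and after exercise at 8.87, 9.22 and 9.18 and 8.86, 8.58 and 8.82 respectively. It had the smallest difference of the 10, -0.47 (SE 0.08, 1.38-fold lower), and the genotypes almost met, at 8.86 and 8.87 in exercised muscle. The gap was wider at rest (-0.60, SE 0.11) than after exercise (-0.34, SE 0.11). The difference between these values, 0.26, had an interval from -0.06 to 0.58, a description only because both values chose the gene. Hagh, the second glyoxalase, was at -0.03 (SE 0.06) and Park7, a proposed glyoxalase, at 0.09 (SE 0.07). Of 13 listed genes of this pathway and of glutathione synthesis 10 were tested and 0 called (1 at an unadjusted p under 0.05, the D-lactate dehydrogenase gene Ldhd, at -0.27 with SE 0.08); Ldhd was called without wild-type exercised replicate 1 (-0.34, SE 0.06, limma adjusted p = 0.0185).

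Among the genes higher in the knockout, Rab6b stood out by size. It encodes a RAB6 GTPase of Golgi transport that is enriched in neurons. Its 3 resting wild-type arrays gave 4.62, 4.49 and 4.19 and the exercised ones 4.08, 4.73 and 4.44, while the knockout gave 5.86, 5.78 and 6.32 at rest and 6.0, 6.16 and 5.69 after exercise. Most wild-type values lay under the median of the whole table, 4.56, so the excess in the knockout is given as at least 2.59-fold, with values under the median set to it, a choice made after seeing the data (1.37 on the log2 scale; 1.54, SE 0.14, as measured). The row used exceeded the median on 8 of 12 arrays, every knockout array among them. It passed the filter of at least 3 arrays only through the knockout. A second row of Rab6b, bright enough on only 2 of 12 arrays and thus not tested, had levels from 4.05 to 4.80 in wild type and 4.15 to 4.68 in the knockout, a difference of -0.02. The 2 rows of Rab6b therefore disagree. The paralogue Rab6a was at 0.03 (SE 0.09), and of 16 listed RAB6 regulators and effectors 14 were tested and 0 called (1 at an unadjusted p under 0.05).

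Ddost encodes a subunit of the oligosaccharyltransferase, the complex that attaches sugar chains to new proteins in the endoplasmic reticulum. Wild-type arrays read 9.16, 9.02 and 9.11 at rest and 8.94, 9.31 and 9.11 after exercise, and knockout arrays 10.12, 10.03 and 10.13 at rest and 9.82, 10.24 and 10.04 after exercise. All knockout arrays were at least 0.51 above all wild-type arrays, and the gene was 1.94-fold higher (difference 0.96, SE 0.08). None of the other subunits passed. All 11 listed were tested and 0 were called by limma (0 also at an unadjusted p under 0.05), with values between -0.15 and 0.07 and only 1 of 11 positive. The catalytic subunits Stt3a and Stt3b were at -0.03 (SE 0.09) and -0.11 (SE 0.08), and the ribophorins Rpn1 and Rpn2 at -0.10 (SE 0.08) and -0.04 (SE 0.06).

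Ctxn3, a small membrane protein gene of the cortexin family, and Cacng7, a gamma subunit known for regulating AMPA-type glutamate receptors, were higher by smaller amounts. For Ctxn3, at rest the wild-type arrays stood at 7.45, 7.07 and 7.37 and the knockout arrays at 8.11, 8.08 and 7.82, and after exercise at 7.54, 7.47 and 7.23 and 8.57, 8.24 and 8.32 respectively. The nearest knockout and wild-type arrays were 0.27 apart, with a difference of 0.83 (SE 0.09, 1.78-fold). The family member Ctxn1 was at -0.04 (SE 0.10); of the 2 listed cortexins it was the 1 bright enough to test.

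For Cacng7, its 3 resting wild-type arrays gave 8.26, 7.96 and 8.21 and the exercised ones 7.89, 8.05 and 7.90, while the knockout gave 8.56, 8.82 and 8.71 at rest and 8.62, 8.74 and 8.76 after exercise. Knockout arrays were at least 0.30 higher, and the difference was 0.66 (SE 0.07, 1.58-fold). Of its 13 measured neighbours on chromosome 7, the next genes on a single side, Cacng8 and Cacng6, also encode gamma subunits, and Cacng8 was at -0.16 (SE 0.15) and Cacng6 at 0.06 (SE 0.07). Cacng1, the gamma subunit of the muscle calcium channel, was at 0.31 (SE 0.07, adjusted p = 0.0819), and the pore subunit Cacna1s at 0.05 (SE 0.06). Of 12 listed genes 10 were tested and 0 called (1 at an unadjusted p under 0.05); Cacng1 was called without knockout sedentary replicate 3 (0.37, SE 0.07, limma adjusted p = 0.0244).

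Neural signal was checked because Rab6b, Ctxn3 and Cacng7 are known from neurons. Of 8 neuron markers 6 (Nefl, Nefm, Tubb3, Snap25, Syt1 and Prph) were too dim to test, and the summed level of the other 2 ranged from 11.1 to 11.6 at rest and 11.3 to 11.5 after exercise in wild type, and 11.4 to 11.7 and 10.9 to 11.6 in the knockout. Among motor nerve and Schwann cell markers, the summed level of the 6 reported here ranged from 33.5 to 34.8, 33.0 to 40.5, 33.6 to 40.3 and 33.8 to 39.8 in the same order of groups. These 6 had a median genotype difference of 0.25, all 6 positive and 0 called; their part in the excess of the 3 genes was not tested.

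**Figure D2:**
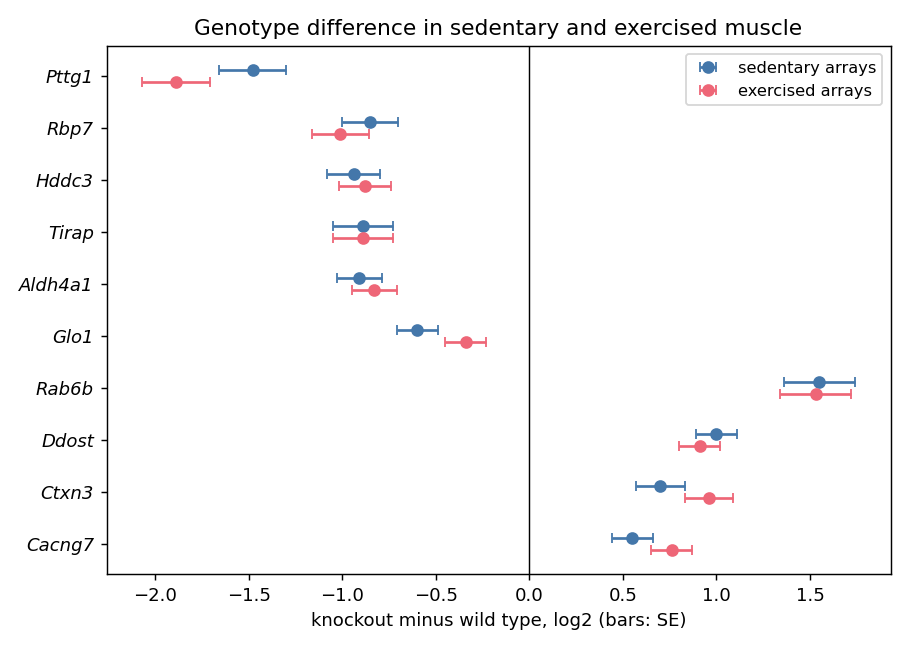
Knockout minus wild type on the log2 scale (horizontal axis) for each gene (vertical axis) in sedentary and in exercised muscle, with bars of 1 SE (3 arrays per group). For each gene both points lie on the same side of 0, from -1.89 for Pttg1 in exercised muscle to 1.55 for Rab6b in sedentary muscle.

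The genotype difference had the same sign in both conditions for all 10 genes, as the choice of genes fixes. Its size differed most in proportion for Glo1 (-0.60 at rest and -0.34 after exercise). The change of the genotype difference with exercise was between -0.41 (Pttg1, SE 0.25) and 0.26 (Ctxn3, SE 0.19, and Glo1, SE 0.15). Intervals of all 10 included 0 and were as wide as -0.95 to 0.12 for Pttg1 and -0.59 to 0.56 for Rab6b. They are a description only, because genes chosen for differing in both conditions favour small changes of this kind. With 3 arrays a group, moderate changes of this kind could also go undetected.

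Exercise itself is a separate question, since its effect averaged over the genotypes is orthogonal to the contrasts that chose the genes. The contrasts still share each gene's estimate of the spread, so the exercise p-values are not wholly free of that choice. Rbp7 rose and the other 9 did not pass. Rbp7 encodes a cellular retinol-binding protein found in endothelium and fat. Wild-type arrays read 5.35, 5.83 and 6.0 at rest and 6.55, 6.68 and 6.68 after exercise, and knockout arrays 4.74, 5.06 and 4.84 at rest and 5.66, 5.70 and 5.51 after exercise. In both genotypes every exercised array lay above every sedentary array, and the knockout exercised arrays lay within the range of the wild-type sedentary ones. Of the 10 genes 1 was so separated in both genotypes, against 2.56% of genes tested. Rbp7 was 1.78-fold higher after exercise (0.83, SE 0.11, limma adjusted p = 0.000494, 6 arrays per condition), by 0.91 in wild type and 0.75 in the knockout (SE 0.15 each). Its deficit in the knockout was -0.85 at rest and -1.01 after exercise (SE 0.15 each), -0.93 (SE 0.11) averaged.

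Limma called 1 of the 10 genes for exercise, where 1.6% of all genes tested were called (220; 150 higher and 70 lower, or 149 and 41 with each array centred on its median; 144 in all without wild-type sedentary replicate 1, and likewise without wild-type exercised replicate 3). For the other 9, estimates ranged from -0.22 for Tirap (interval -0.47 to 0.02, adjusted p = 0.508) to 0.25 for Ctxn3 (interval 0.05 to 0.44, adjusted p = 0.3). The 95% intervals, such as those of Cacng7 (-0.25 to 0.06) and Glo1 (-0.02 to 0.30), leave room for small effects. The median over the 10 was -0.02, beside -0.01 over all genes tested.

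**Figure D3:**
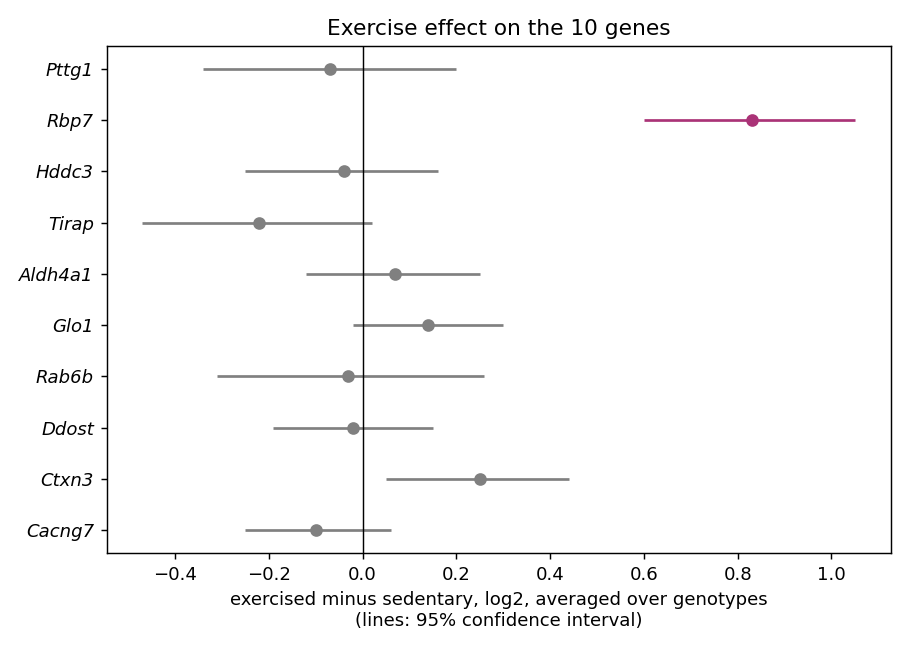
Exercised minus sedentary on the log2 scale, averaged over genotypes (horizontal axis), for each gene (vertical axis), with 95% confidence intervals from limma (6 arrays per condition). Rbp7, at 0.83 with an interval from 0.60 to 1.05, is the 1 gene that passed after adjustment over all genes tested.

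No other gene of the retinoid list passed for exercise. Of 19 listed retinoid carriers, enzymes and receptors and fatty acid-binding proteins 16 were tested, 0 were called for exercise (2 at an unadjusted p under 0.05, median -0.04) and 0 for genotype by limma (2 at an unadjusted p under 0.05, median -0.07). The adipocyte fatty acid carrier Fabp4 was at 0.03 for exercise and -0.12 for genotype (SE 0.10 each). Endothelial markers, 8 of 8 measured, had summed levels of 61.9 to 62.3 at rest and 60.7 to 61.0 after exercise in wild type, and 61.9 to 62.1 and 59.4 to 61.2 in the knockout. These sums were lower after exercise, without overlap, in both genotypes, where Rbp7 was higher; the median was -0.17 with 2 of 8 called. Their median genotype difference was 0.00, and their part in the Rbp7 values was not tested. Adipocyte markers, 5 of 7 measured without Cfd and Lep, had overlapping summed levels of 35.7 to 39.3, 37.8 to 39.8, 36.9 to 40.5 and 36.9 to 38.6 in the same order. None of the adipocyte markers was called by limma for either effect.

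Over all lists, 110 of 132 related genes were tested. Limma called 0 for genotype, as did analysis of variance without moderation, and 11 (10%) had an unadjusted p under 0.05, against 9.36% of all genes tested. The gene Noct, a phosphatase that acts on NADP, was called for exercise (0.51, SE 0.08, limma adjusted p = 0.00238), a share of 0.909% against 1.6%.

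The 10 genes lie on 6 chromosomes, none of them chromosome 10, which holds Ddit4. Chromosome 4 carries Ddost, Aldh4a1 and Rbp7, chromosome 7 Cacng7 and Hddc3, and chromosome 9 Tirap and Rab6b. Pttg1 is on chromosome 11, Glo1 on 17 and Ctxn3 on 18. The array's genome build is not given in the sources used here, so places are given by gene order in the GRCm38.p6 reference table. Ddost and Aldh4a1 are the 663rd and 685th of 854 measured genes on chromosome 4 and Rbp7 the 761st, whereas Cacng7 is the 4th of 1086 on chromosome 7 and Hddc3 the 588th. On chromosome 9, Tirap is the 129th and Rab6b the 557th of 770.

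To see whether the differences extended along the chromosome, the 10 measured genes on each side of each were taken, 193 in all without the 10 genes themselves. Limma called 3 of them for genotype (1.55%, against 0.546% of all genes tested): Capzb, an actin-capping subunit near Aldh4a1 (-0.30, SE 0.05, adjusted p = 0.0211), and near Ctxn3 Gramd3 (-0.36, SE 0.08, adjusted p = 0.0474) and the interferon-inducible GTPase Iigp1 (-1.95, SE 0.24, adjusted p = 0.000963). Where genes had to exceed the table median on all 12 arrays, 4 neighbours were called. Iigp1 was not among them, so its difference may rest partly on dim values. Leaving out each of the 12 arrays in turn gave counts between 1 and 8. It was 8 without wild-type exercised replicate 1, and 1 without wild-type sedentary replicate 3, wild-type exercised replicate 2, wild-type exercised replicate 3 or knockout exercised replicate 1. The 193 had a median of -0.01, with 90 positive, and 31 (16.1%) had an unadjusted p under 0.05 against 9.36% of all genes.

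The neighbourhoods varied in range. Around Glo1, 0 of 20 neighbours had an unadjusted p under 0.05 and 0 were called by limma, and values ran from -0.14 to 0.14. Around Pttg1 they ran from -0.24 to 0.23 beside its own -1.69, with 1 of 20 at an unadjusted p under 0.05. Around Rab6b they ran from -0.39 to 0.11 beside 1.54, with 2 of 20. The counts were 6 of 20 around Ddost, 7 of 20 around Aldh4a1 and 6 of 20 around Ctxn3. They were 4 of 20 around Hddc3 and around Rbp7, 1 of 20 around Tirap and 0 of 13 around Cacng7. Over all genes tested the share was 9.36%.

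Between Ddost and Aldh4a1, which differ in opposite directions, lie 21 measured genes with a median of 0.01 and values from -0.49 to 0.41. Limma called 2 of these 21 for genotype, where 0.546% of all genes tested were called. Both were lower in the knockout: Capzb and, chosen after its value was seen, the deubiquitinase gene Otud3 (-0.49, SE 0.09, adjusted p = 0.0257). For exercise, 6 of the 193 neighbours were called (3.11%, against 1.6%). They were Alpl near Ddost (0.66), Gpr157 (0.62) and the mitochondrial carrier Slc25a33 (0.79) near Rbp7, Cdon (-0.42) and Ets1 (-0.54) near Tirap, and Zfp608 near Ctxn3 (-0.49).

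**Figure D4:**
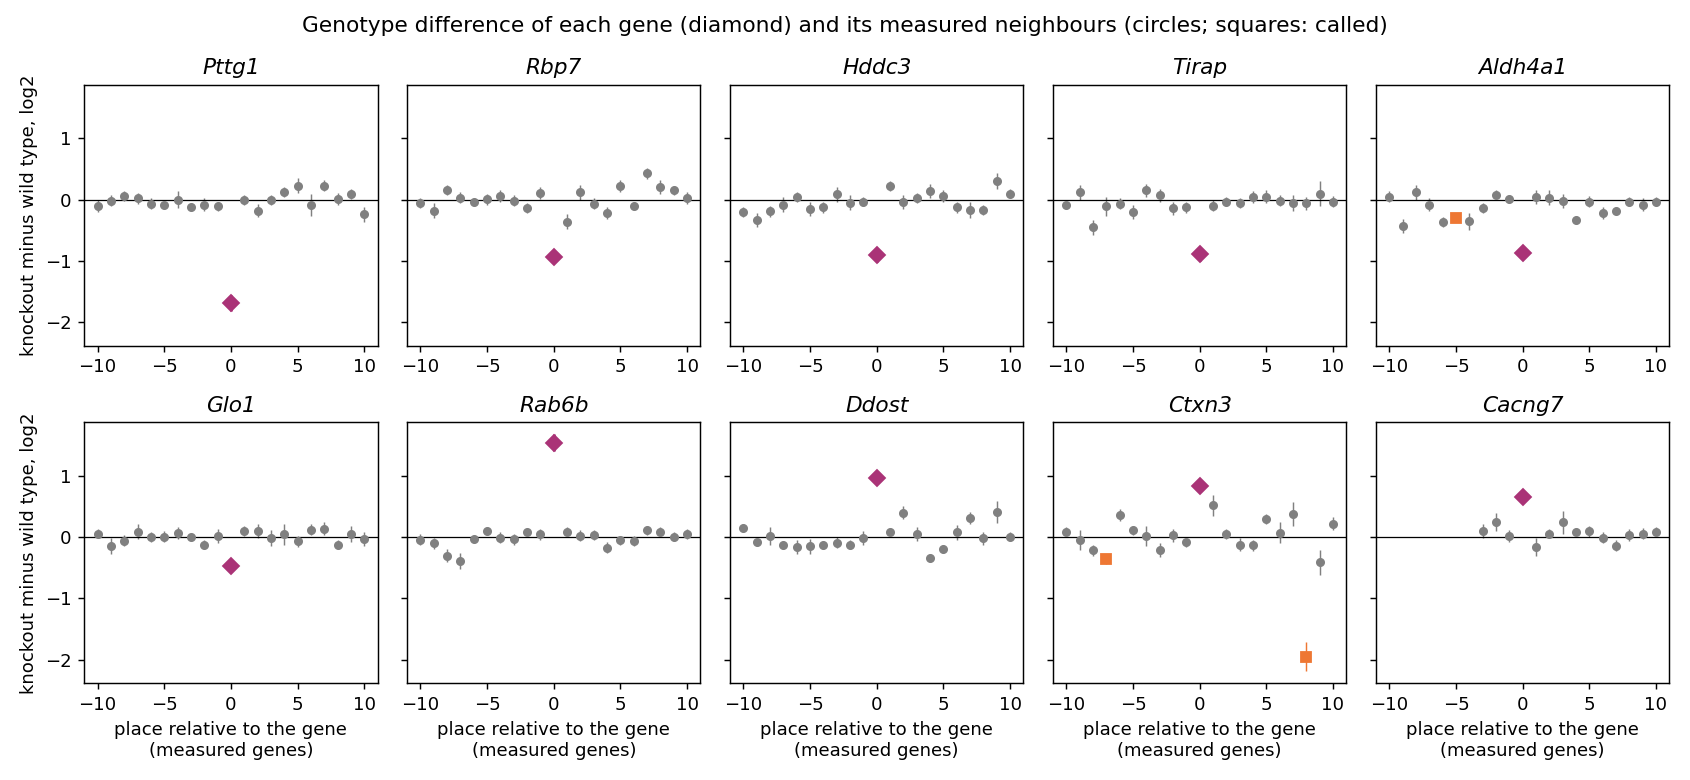
Knockout minus wild type on the log2 scale, averaged over conditions (vertical axis), for each of the 10 genes (diamond at 0) and up to 10 measured genes on either side in chromosome order (horizontal axis, places counted in measured genes), with bars of 1 SE; squares are neighbours that limma called. Except for Iigp1, at -1.95 near Ctxn3, no neighbour lies further from 0 than its diamond.

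Ranked by p over all genes tested, the 10 lie at places 2 (Pttg1), 3 (Ddost), 4 (Rab6b), 5 (Aldh4a1), 7 (Hddc3), 8 (Ctxn3), 9 (Cacng7), 10 (Rbp7), 15 (Tirap) and 30 (Glo1) for genotype. The list thus leaves out 20 genes ranked before Glo1. Place 1 is a gene model known only by a clone identifier. The next 10 by p are Ddit4, the sterol enzyme gene Hsd17b7 (0.82, SE 0.10), Ahcy of the methionine cycle (0.59, SE 0.07), Iigp1, the ribonuclease gene Rnase2a (2.09, SE 0.27), Plpp7 (-0.56, SE 0.07), the cohesin acetyltransferase gene Esco1 (-0.49, SE 0.07), Fam214a (0.52, SE 0.07), Lypd6 (-0.71, SE 0.10) and the snoRNA host gene Snhg6 (0.45, SE 0.06).

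The genes were chosen for their genotype difference, so likeness of their profiles over the 12 arrays restates that choice. By Pearson's r, given as a description without a p, Rab6b and Ddost were each other's closest gene (0.968) and so were Hddc3 and Aldh4a1 (0.951). Nomo1, an endoplasmic reticulum membrane protein gene, came second for Rab6b (0.961) and Ddost (0.959), and Cacng7 was closest to Ddost (0.939) and Mss51 (0.918). The genes closest to Tirap, Ctxn3 and Glo1 were Capzb (0.965), Fam214a (0.960, then Snhg6 at 0.928) and Ndufs1 (0.939, then Cmbl at 0.930). Second to Hddc3 came Coq9 (0.943), second to Aldh4a1 Sap30l (0.930) and second to Pttg1 Plac9a (0.934), the first for Pttg1 being the unnamed gene model, which was also second for Tirap. Rbp7 had the loosest matches, Adamtsl2 (0.899) and Gramd3 (0.896).

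With the group means removed, pairs ranged widely. Over the 45 pairs of the 10 genes, the median r of the deviations from the group means was -0.03, from -0.81 for Aldh4a1 with Cacng7 to 0.79 for Ddost with Tirap. All pairs share the same 12 arrays and their normalisation, so no p is given.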

How the data were processed

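Total RNA of plantaris was labelled with Affymetrix's whole-transcript kit for arrays, per the labels' protocols. The table the authors deposited holds 1 processed value per transcript cluster and array, read as log2 expression from a range of 0.36 to 13.9; Partek is named without a version, per the submitters' processing notes. The authors' log base, background correction and normalisation are not given in the sources used here. Array medians lay between 4.52 and 4.60. The number of arrays limits the precision.

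Of 41345 clusters, 23521 had a single symbol, and the row with the highest mean was taken per gene. Genes above the table median, 4.56, on at least 3 arrays were tested (13747). Limma 3.58.1 in R 4.3.3 fitted 1 mean per group to all 12 arrays (eBayes with an intensity trend), with Benjamini-Hochberg adjustment over all genes and calls at an adjusted p under 0.05, two-sided. The fit was tested on simulated data. The members and lists were chosen with earlier results of these data known. Named were the 10 genes, Ddit4, neighbours or list genes called for either effect, the 10 genes of smallest genotype p outside the list and the 2 genes most alike in profile; a planned choice by protein sequence was not used here. Some nerve and Schwann cell markers are not reported here. Alternatives covered the filter, scaling, moderation, array weights, rows per gene, the number of neighbours and each array left out.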

Additional observations from a re-analysis of the deposited data

How the results depend on the processing

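With 3 arrays a group, small effects stay below detection, and Rab6b in wild type lay near the table median. Rbp7 was called for exercise under all 20 alternatives, and no other of the 10 genes was, Rab6b being untested where all 12 arrays had to exceed the table median (Rbp7 0.73 to 0.90, adjusted p from 0.000219 to 0.0277, the highest by analysis of variance without moderation). The filters, the intensity trend and moderation cannot move a genotype difference. Under the scalings, array weights, floor, single conditions, other row and arrays left out, those that moved by more than the spread between replicates were Glo1 within sedentary (-0.60) or exercised arrays (-0.34) and the other row of Rab6b, where the sign turned (-0.02).

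Genes called for genotype numbered 75, and 42 without the intensity trend, 23 without moderation and 193 with array weights. For exercise they numbered 220, and 67 without moderation and 348 with array weights. Neighbours called for genotype numbered 3, and 1 without the trend (Iigp1), 1 without moderation (Capzb), 10 with array weights, 1 with 5 measured genes on each side (of 98) and 5 with 20 (of 364). Related genes called for genotype numbered 0, and 2 with array weights (Cacng1 and Ldhd). The weights gave wild-type exercised replicate 1 the lowest weight, 0.37. With 1 array left out, the counts ran from 38 to 149 genes and 1 to 8 neighbours for genotype, 144 to 220 genes for exercise, 0 to 1 related genes for genotype and 1 to 2 for exercise (Hoga1 added without wild-type sedentary replicate 3). The 149 genes and 8 neighbours came without wild-type exercised replicate 1, and 38, 45, 43, 40, 42, 45 and 45 genes without wild-type sedentary replicates 2 and 3, wild-type exercised replicates 2 and 3, knockout sedentary replicate 2 and knockout exercised replicates 1 and 2. For exercise, leaving out the first wild-type sedentary array or the third wild-type exercised array gave 144. The cause of these shifts was not tested. No paired analysis was possible because the replicate numbers follow the order of the samples and pair nothing across groups.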
